A study of Homo sapiens with 21 samples.

Results

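HCT116, a human colorectal carcinoma line that is deficient in mismatch repair, was compared with MCF10A, a non-tumorigenic line of human breast epithelium. The comparison used every array of both lines in a series on the transcriptome of cells with mismatch repair defects, 6 of its 21 arrays, with 3 for HCT116 and 3 for MCF10A. Gene expression had been read on Illumina BeadChips from total RNA, with 1 array per sample and in 1 colour. The genotype label of both lines reads CTRL, and the sources used here do not say what the samples are a control of or how the cells were grown. Titles of the HCT116 samples read HCCT116, and the line is named HCT116 from its own label. The other 15 arrays are KLE, an endometrial carcinoma line, of which the 3 arrays with the control hairpin shCTRL are given below for orientation only. Each tissue stands here as 1 established line, and the lines differ in tissue of origin, tumour status and repair status together, so these cannot be told apart.

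Mismatch repair corrects mispaired bases and small loops left by DNA polymerase: a MutS complex recognises the mismatch, a MutL complex directs the cut, and an exonuclease, a clamp, its loader and a polymerase remove and refill the strand. Colonic cells are columnar epithelium built on keratins 8, 18 and 19 and held in their identity by homeobox factors such as CDX2. MCF10A cells carry features of basal breast epithelium, which rests on the basement membrane and is built on keratins 5 and 14.

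All levels are log2 of the array signal plus an offset of 16, after quantile normalization, so a difference of 1 is a doubling. Signals of single probes lay between 75.68 and 19430 units before normalization, and array medians between 103.7 and 121 units in HCT116 and between 104.4 and 122.2 units in MCF10A. A group mean at or below 6.93 in HCT116 or 6.94 in MCF10A is called near background: this is the 95th percentile over 437 probes of olfactory receptor genes, which are normally silent outside olfactory tissue. Background remains in the values, so folds of dim genes are understated. Where the lower group is near background a fold is given as a bound, taken from the brighter group's mean over that level, and log2 differences are of the measured means. Arrays of the same line correlated with r between 0.9898 and 0.997 across probes, which are not independent replicates, and arrays of different lines with r between 0.9081 and 0.9162. The labels do not state that the replicates came from separate cultures, so p-values measure the spread between these arrays only, and 3 arrays per line limit the precision.

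Of 20046 genes, 477 (2.38%) were higher in HCT116 by at least 2-fold and 707 (3.53%) were lower by at least 2-fold, at an adjusted p below 0.05 in limma's two-sided moderated test. Together these are 5.91% of all genes. The split of higher and lower calls depended on the normalization: with median scaling 689 genes were higher and 728 lower, and with values as deposited 722 were higher and 716 lower. With no minimum size, 3556 genes (17.7%) passed as higher and 2953 (14.7%) as lower, 32.5% in either direction, and a gene is said below to have risen or fallen only where it passed. The median difference over all genes was 0.01. At larger sizes, 73 genes fell by at least 8-fold and 31 by at least 16-fold, while 23 rose by at least 8-fold and 9 by at least 16-fold. MCF10A was near background for 88 of the 477 higher genes, and HCT116 for 147 of the 707 lower genes. KLE shCTRL lay nearer to HCT116 than to MCF10A in 153 of the 477 higher genes and in 456 of the 707 lower genes.

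**Figure D1:**
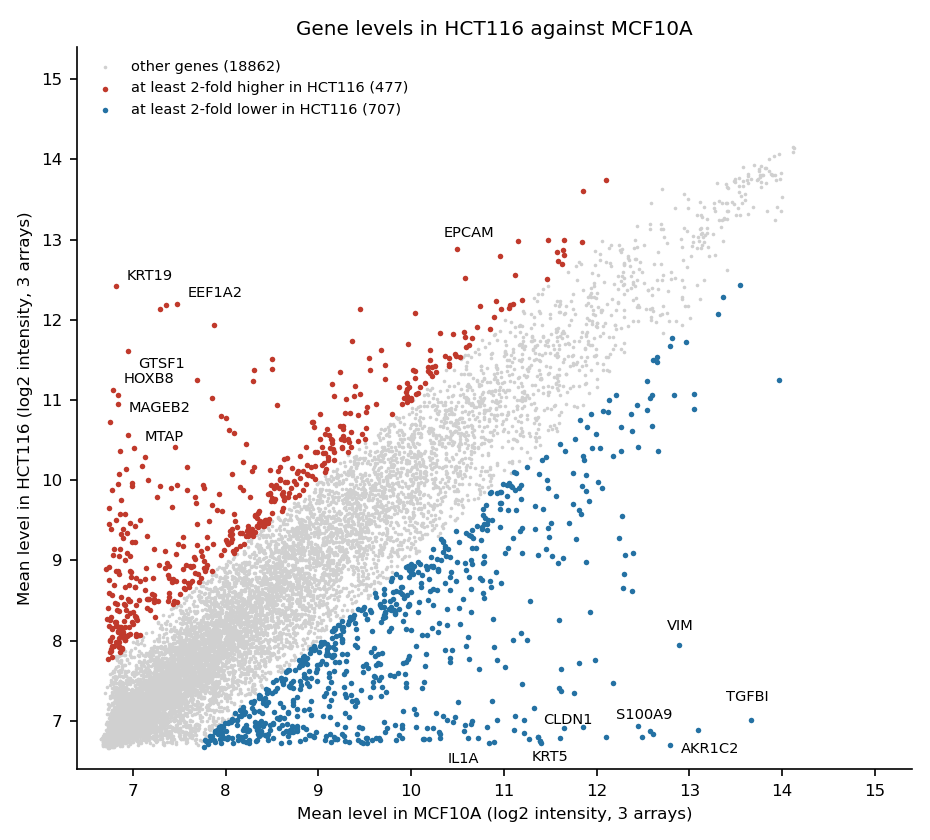
Mean log2 level in HCT116 and in MCF10A for each gene, with genes called at least 2-fold in colour and the largest differences named. Most genes lie along the diagonal, and the called genes far from it are more numerous on the MCF10A side, with 73 falls and 23 rises of at least 8-fold.

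The largest rises in HCT116 included a keratin of simple epithelium, germline genes and a homeobox gene. KRT19, a type I keratin of simple epithelium, had log2 levels of 12.43, 12.13 and 12.69 in HCT116, against 6.82, 6.81 and 6.83 in MCF10A, where it was near background. This was the largest rise of all genes, at least 44.6-fold (log2 difference 5.596, SE 0.12, adjusted p = 5.3e-08), and KLE shCTRL averaged 12.36. EEF1A2, the translation elongation factor form of muscle and nerve, had levels of 12.42, 11.93 and 12.26 in HCT116, against 7.56, 7.43 and 7.44 in MCF10A (difference 4.72). GTSF1, which acts in the piRNA pathway of germ cells, had 11.67, 11.62 and 11.52 in HCT116, against 6.91, 6.99 and 6.94 in MCF10A (difference 4.66). CYBA, a subunit of the NADPH oxidase, had 10.91, 11.40 and 10.54 in HCT116, against 6.87, 6.83 and 6.82 in MCF10A, at least 16.2-fold higher. Arrays of the lines that do not overlap were a condition for this ranking and for that of the largest falls, so the gap is no separate result.

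The other large rises were of secreted and membrane proteins and of genes with less even readings. GAL, the neuropeptide galanin, was at least 13.8-fold higher in HCT116, and NPW, neuropeptide W, at least 8.81-fold higher. MALL, a membrane traffic protein, rose by 3.56, MKX, the Mohawk homeobox factor of tendon, was at least 10.8-fold higher, and ANXA10, an annexin known from stomach epithelium, rose by 3.39. SNAR-A1, a small noncoding RNA with many near-identical copies, had 11.89, 12.92 and 11.62 in HCT116, against 7.43, 7.19 and 7.27 in MCF10A, and the copies cannot be told apart by the probe. For AKAP12, a scaffold for protein kinase A, the brightest probe rose by 4.84, another bright probe by 4.13 and dimmer probes by 1.38 and 0.83. KITLG, the ligand of the KIT receptor, rose by 4.07 on its brightest probe, by 3.65 on another and by 0.59 on a dim one. All probes of AKAP12 and KITLG shared the direction, with smaller sizes on the dimmer probes.

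The largest fall of all genes was that of TGFBI, a matrix protein induced by TGF-beta. TGFBI had levels of 6.93, 7.01 and 7.10 in HCT116, against 13.83, 13.67 and 13.50 in MCF10A (difference -6.65, SE 0.09, adjusted p = 4.1e-09), a 100.4-fold lower signal. KYNU, kynureninase of tryptophan breakdown, had 6.71, 6.77 and 6.64 in HCT116, against 12.80, 12.90 and 12.67 in MCF10A, at least 58-fold lower. VIM, the intermediate filament vimentin, had 7.96, 7.90 and 7.99 in HCT116, against 12.95, 12.99 and 12.73 in MCF10A (difference -4.94). TXNIP, an inhibitor of thioredoxin that responds to glucose, was near background in HCT116 and at least 26.4-fold lower there. BASP1, a membrane protein of growing neurites, was at least 30.2-fold lower, and FGFBP1, a carrier that releases fibroblast growth factors, fell by 4.70. In 12 of the 15 largest falls KLE shCTRL lay nearer to HCT116, and in 4 of the 15 largest rises. VIM and TXNIP were among the exceptions, with KLE shCTRL means of 13.07 and 10.81.

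**Figure D2:**
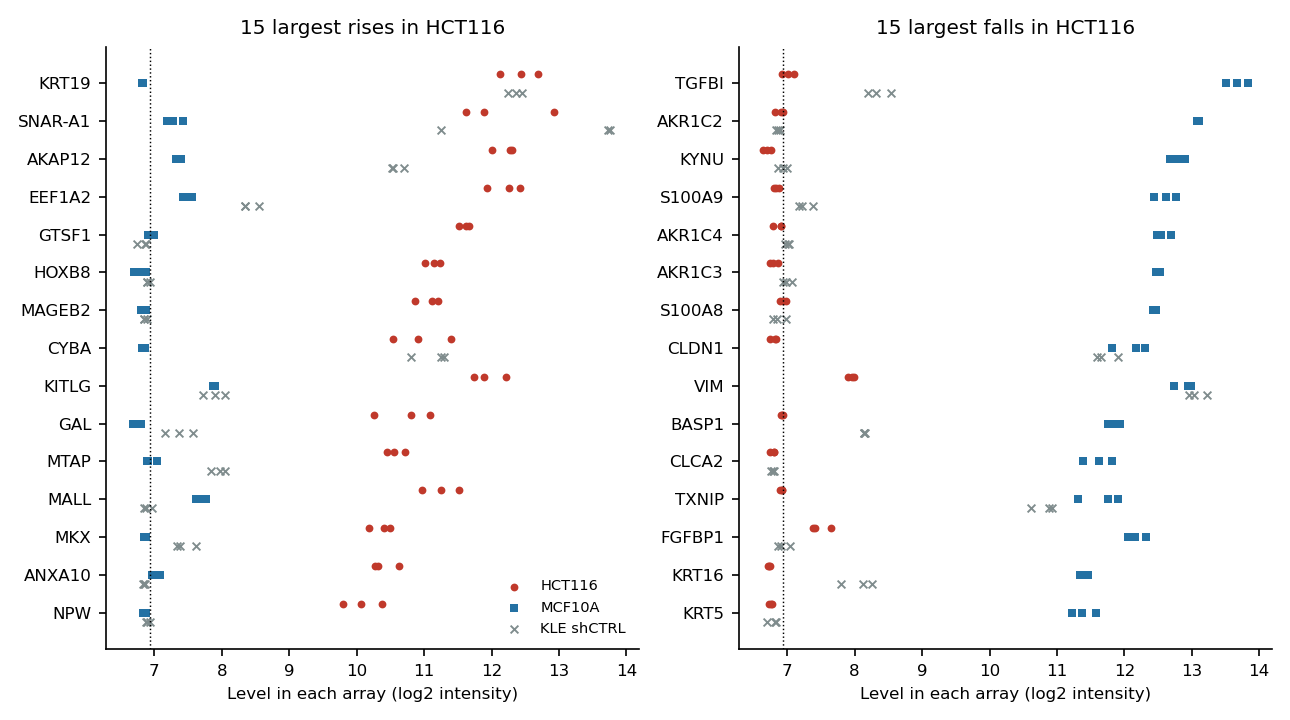
Log2 level on every array for the genes with the 15 largest rises and the 15 largest falls, with red points for HCT116, blue squares for MCF10A, crosses for KLE shCTRL and the dotted line at the near-background level. Genes were ranked only among those that passed and whose HCT116 and MCF10A arrays do not overlap, so the gap is part of the choice. In 11 of the 15 falls HCT116 is near background.

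The gene lists moved unevenly. Basal epithelium, S100 proteins, NF-kappaB cytokines, cholesterol synthesis and p53 targets held mostly falls, while DNA replication, mitosis and mismatch repair held mostly rises. Lists of ribosomal proteins and oxidative phosphorylation lay near 0. Counts for each follow, to be read against the shares over all genes. These were 17.7% that rose and 14.7% that fell, and 2.38% and 3.53% by at least 2-fold. They include 7265 genes near background in both lines, so they are no matched baseline for lists with few such genes. With only probes above the array median on at least 3 arrays, 3626 of 12764 genes rose and 2988 fell.

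**Figure D3:**
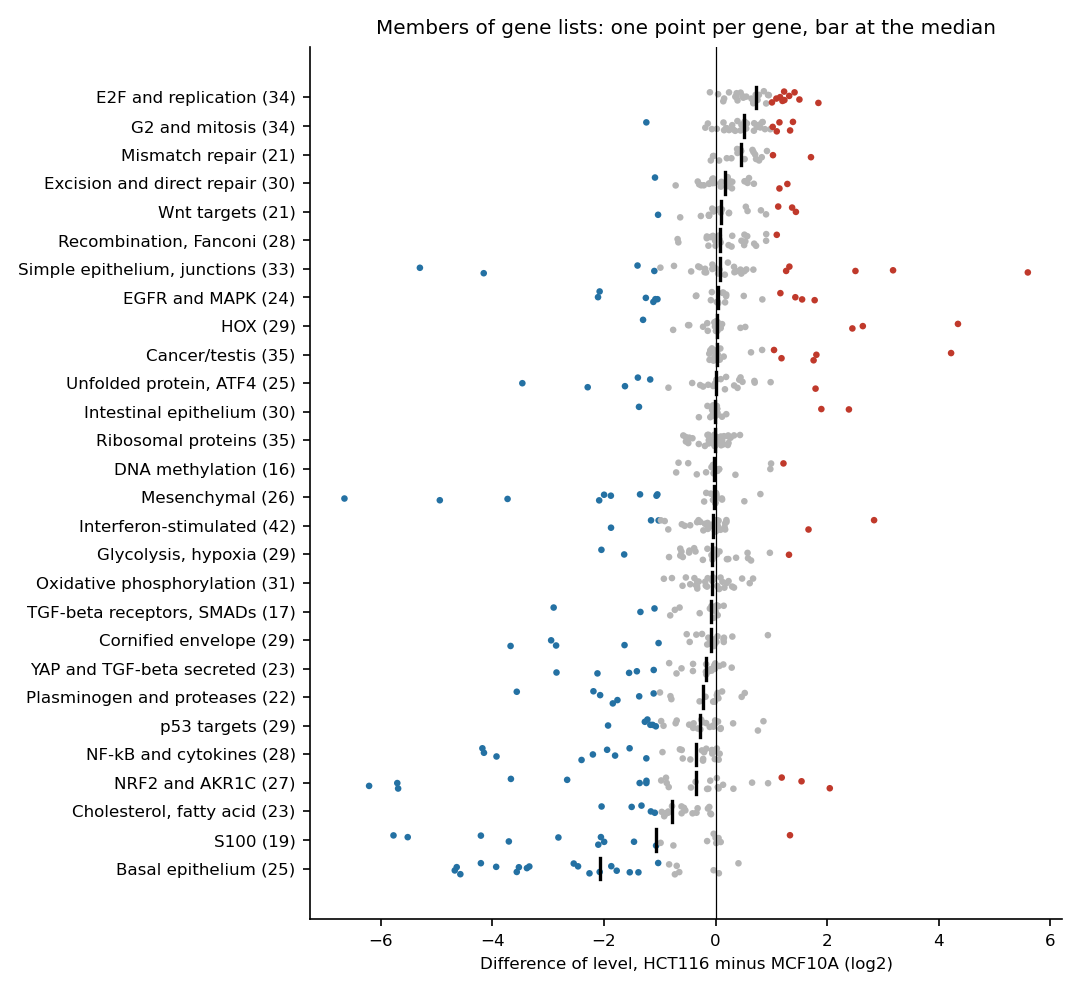
Log2 difference, HCT116 minus MCF10A, of every member of 28 gene lists, with 1 point per gene, a bar at the list's median, and members called at least 2-fold in red where higher and blue where lower. Counting calls of at least 2-fold, the basal epithelium list holds 18 falls and no rise, and the E2F and replication list 10 rises and no fall.

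Basal epithelium genes were low in HCT116. Of 25 members, 22 fell and 1 rose, 18 fell by at least 2-fold, and the median difference was -2.08, against 0.01 over all genes. KRT5, a keratin of basal cells, had levels of 6.77, 6.73 and 6.77 in HCT116, against 11.58, 11.22 and 11.37 in MCF10A, at least 22-fold lower. Its partner KRT14 had 6.75, 6.81 and 6.81 in HCT116, against 10.65, 10.73 and 10.79 in MCF10A, at least 13.8-fold lower. KRT16, a keratin of activated keratinocytes, was at least 22.2-fold lower on its brightest probe, with another at -1.10. Adhesion genes fell with them. LAMB3, a chain of the basement membrane laminin, fell by 3.34, and DSG3, a desmosomal cadherin, was at least 5.09-fold lower. ITGB4, the integrin of hemidesmosomes, had 7.28, 7.43 and 7.45 in HCT116, against 9.52, 9.38 and 9.48 in MCF10A on its brightest probe, and another probe fell by 1.87, while 2 further probes were near background in both lines. SNAI2, a transcription factor of basal cells, was at least 10.4-fold lower, and SERPINB5, the serpin maspin, fell by 3.56. JAG2, a Notch ligand, was the member that rose, by 0.41.

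Simple epithelium genes and junction genes went both ways. Of 33 members, 15 rose and 10 fell, 5 and 4 of them by at least 2-fold, with a median of 0.07. KRT8, the partner of KRT18, had 11.19, 10.69 and 11.22 in HCT116, against 7.90, 7.80 and 7.86 in MCF10A (difference 3.18, SE 0.13, adjusted p = 1.3e-06). For KRT8 the KLE shCTRL average was 12.2. KRT18 itself rose by 0.46. RAB25, an epithelial vesicle traffic GTPase, rose by 2.51, and the tight junction genes CLDN7 and CGN rose, by 1.32 and at least 2.25-fold. Other members fell. CLDN1, a tight junction claudin, had 6.75, 6.83 and 6.82 in HCT116, against 12.17, 12.30 and 11.82 in MCF10A, at least 35.9-fold lower. KRT7, a keratin of ducts, fell by 4.15, DSP, the desmosomal plaque protein desmoplakin, by 1.40 (other probes -0.32 and -0.16), and CDH1, E-cadherin, by 1.10. Among keratins and among junction genes, some members thus rose and others fell.

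**Figure D4:**
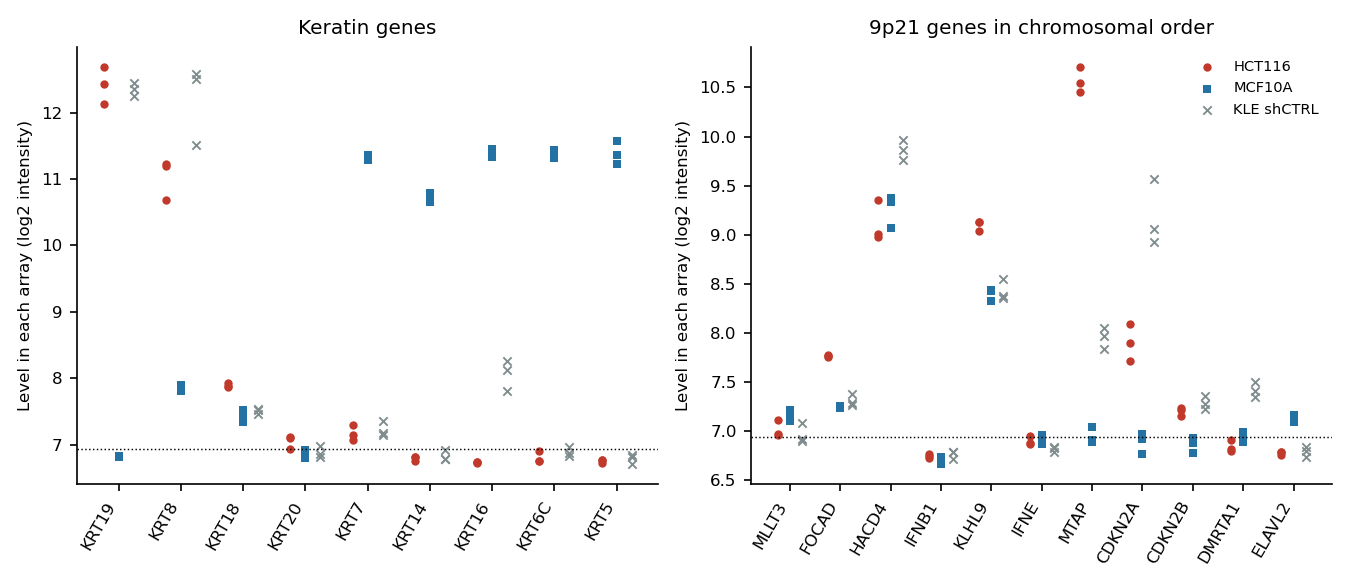
Log2 level on every array for keratin genes and for genes of chromosome band 9p21 in chromosomal order, with red points for HCT116, blue squares for MCF10A, crosses for KLE shCTRL and the dotted line at the near-background level. KRT19 and KRT8 are high in HCT116, KRT5, KRT14, KRT16 and KRT7 in MCF10A, and MTAP stands out among its neighbours.

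The labelled tissue of HCT116 was only partly visible in its markers. Of 30 intestinal epithelium genes, 20 were near background in both lines, 2 rose and 2 fell. CDX2, the intestinal homeobox factor, had 8.67, 8.76 and 8.66 in HCT116, against 6.80, 6.76 and 6.84 in MCF10A, at least 3.38-fold higher. EPCAM, an adhesion molecule of simple epithelium, had 12.95, 12.71 and 12.99 in HCT116, against 10.53, 10.48 and 10.47 in MCF10A (difference 2.39). KLE shCTRL averaged 6.86 for CDX2, near background, but 11.96 for EPCAM, so a high EPCAM level was not particular to the colorectal line. Differentiation markers of the gut were absent or weak. CDX1, VIL1 and CDH17 were near background in both lines, and KRT20 had 6.93, 7.11 and 7.10 in HCT116, against 6.91, 6.80 and 6.85 in MCF10A, which did not pass (adjusted p = 0.053), with another probe at -0.16. CEACAM6, a surface glycoprotein of colon epithelium, was near background in HCT116 and at least 2.5-fold lower there.

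Markers of other cells were measured in the same way. Of 20 luminal breast genes, 3 rose and 4 fell, shares near the 17.7% and 14.7% over all genes, and 2 and 1 of them by at least 2-fold. The receptor genes ESR1 and PGR were near background in both lines. KRT8, given above, rose by 3.18, and MLPH, melanophilin, by 1.23. CA12, a carbonic anhydrase, fell by 3.28 on its brightest probe and by 1.6 on another. The summed signal of the list lay between 6274 and 7471 units in HCT116 and between 6107 and 6214 units in MCF10A. Among 12 genes of Mullerian duct epithelium, 1 rose (MSX1, a homeobox factor, by 2.89) and 3 fell (MSLN, mesothelin, by 1.80), with summed signals of 4266 to 4697 units in HCT116 and 3473 to 4341 units in MCF10A. Of 14 endothelial genes, 2 rose, none by 2-fold, with sums of 1589 to 1660 units in HCT116 and 1586 to 1627 units in MCF10A. Fibroblast genes gave 2 rises and 3 falls among 15, with sums of 3206 to 4209 units in HCT116 and 4363 to 4609 units in MCF10A. S100A4, a calcium-binding protein, was among the rises, by 1.33. The falls there included DCN, the matrix proteoglycan decorin, at least 15-fold lower on its brightest probe, with another at -2.66 and 2 further probes near background in both lines. Leukocyte genes gave 1 rise and 1 fall among 17, with PTPRC near background in both lines and sums of 2185 to 2272 units in HCT116 and 3204 to 3242 units in MCF10A. The fall was CD14, a receptor of bacterial lipopolysaccharide, at least 9.42-fold lower in HCT116 on its brightest probe, with another at -1.11. The part of such markers in the results was not tested. Samples are named as 1 established line each, so these values are levels in that line and do not count cells of other types. From bulk RNA, fewer cells of the line expressing a gene and less RNA per cell cannot be told apart.

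Several mesenchymal genes were low in HCT116. Of 26 members, 10 fell and 2 rose, 9 fell by at least 2-fold, and the median was -0.04. CDH2, N-cadherin, had 6.84, 6.73 and 6.75 in HCT116, against 8.72, 8.91 and 8.95 in MCF10A, at least 3.8-fold lower, and 12.16 on average in KLE shCTRL. THBS1, the matrix protein thrombospondin 1, fell by 3.73. ACTA2, smooth muscle actin, fell by 1.88, and TPM1, tropomyosin 1, fell by 1.997 on its brightest probe by 1.74 on another and by 0.30 on each of 2 further probes. TGFBI and VIM, above, belong to the list as well.

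TGF-beta and YAP genes held falls and no rise. Among 17 receptors and SMAD genes none rose and 7 fell. TGFBR2, the type II receptor of TGF-beta and a known site of frameshifts in mismatch repair deficient colon tumours, had 8.89, 8.88 and 9.17 in HCT116, against 12.02, 11.91 and 11.70 in MCF10A (difference -2.90, SE 0.10, adjusted p = 6.1e-07). The arrays did not overlap, KLE shCTRL averaged 8.85, another probe of TGFBR2 fell by 2.80, and a dim one did not pass (-0.04). TGFBR3, a co-receptor, fell by 1.35, and BMPR2, a receptor of bone morphogenetic proteins, by 1.09. Among 23 secreted and induced YAP and TGF-beta genes none rose and 11 fell, 5 of them by at least 2-fold, with a median of -0.17. PMEPA1, a feedback inhibitor of TGF-beta, had 6.89, 6.84 and 6.86 in HCT116, against 9.84, 9.88 and 9.44 in MCF10A on its brightest probe, at least 6.88-fold lower. CCN2, the connective tissue growth factor, fell by 2.12. Other PMEPA1 probes fell by 1.43 and by 0.36, and another read near background in both lines.

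Of 27 genes listed as frameshift targets of mismatch repair deficient tumours, 7 rose and 7 fell, with a median of -0.02. Besides TGFBR2, COBLL1, an actin-binding protein, fell by 1.5, and SLC35F5, a solute carrier, by 1.07. AXIN2 rose and is given with the WNT genes. Arrays read RNA level and not sequence, so no frameshift was measured.

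Of 21 mismatch repair genes measured, 14 rose and none fell, 2 of them by at least 2-fold, with a median of 0.46. Most of the genes that rose act in the resynthesis step, but so do most members of the list, so this is no result about that step. RFC5, a subunit of the clamp loader, had 11.00, 10.87 and 11.15 in HCT116, against 9.36, 9.39 and 9.15 in MCF10A (difference 1.71, SE 0.09, adjusted p = 4.0e-06), while its second, dim probe did not pass (-0.03). RPA2, a subunit of the single-strand binding protein, had 11.04, 10.97 and 11.06 in HCT116, against 9.96, 10.01 and 10.02 in MCF10A (difference 1.03). The loader subunits RFC4 and RFC2 rose by 0.92 and 0.83, the ligase LIG1 by 0.71, the exonuclease EXO1 by 0.68 and the clamp PCNA by 0.45. The clamp loader subunit RFC3, the RPA subunit RPA1, the polymerase delta subunits POLD2 and POLD1 and the chromatin protein HMGB1 rose by 0.73, 0.78, 0.66, 0.39 and 0.52. The call for POLD1 was lost without HCT116 replicate 1 or 3 or MCF10A replicate 1, and that for HMGB1 with KLE shCTRL in the fit (adjusted p = 0.12). RFC1, RPA3, POLD3, POLD4 and the MutL gene MLH3 did not pass, with differences of 0.20, 0.46, 0.06, -0.04 and -0.08. RPA3 had 10.58, 11.09 and 10.28 in HCT116, against 10.18, 9.93 and 10.46 in MCF10A, so its arrays overlapped. Dimmer probes gave 0.27 for RFC2 and 0.25 for POLD2, 0.44 and 0.14 for EXO1, and 0.33 and 0.05 for PCNA. Dimmer probes of RFC1, POLD3 and MLH3 gave 0.05, 0.03 and 0.03. The clamp, its loader, RPA and the ligase also serve DNA replication.

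The recognition genes differed less. MSH6, which recognises mispaired bases as part of a MutS complex, had 10.87, 10.91 and 11.19 in HCT116, against 10.67, 10.64 and 10.52 in MCF10A (difference 0.39, adjusted p = 0.012). The call for MSH6 was lost with KLE shCTRL in the fit (adjusted p = 0.08) and with the replicate number as a block (adjusted p = 0.055). MSH3, which recognises small loops, had 13.40, 13.55 and 13.38 in HCT116, against 13.52, 13.57 and 13.34 in MCF10A on its brightest probe (difference -0.03, adjusted p = 0.83). A dimmer probe of MSH3 averaged 7.28 in HCT116 and 8.54 in MCF10A, a difference of -1.26 (adjusted p = 3.1e-06), so its probes disagree and no direction is given. PMS1, a MutL protein, rose by 0.45. PMS2, the main partner in the MutL complex, had 8.17, 8.32 and 8.09 in HCT116, against 7.79, 7.78 and 8.15 in MCF10A, so the lines overlapped, and it did not pass (adjusted p = 0.098), with other probes at 0.22 and 0.06.

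**Figure D5:**
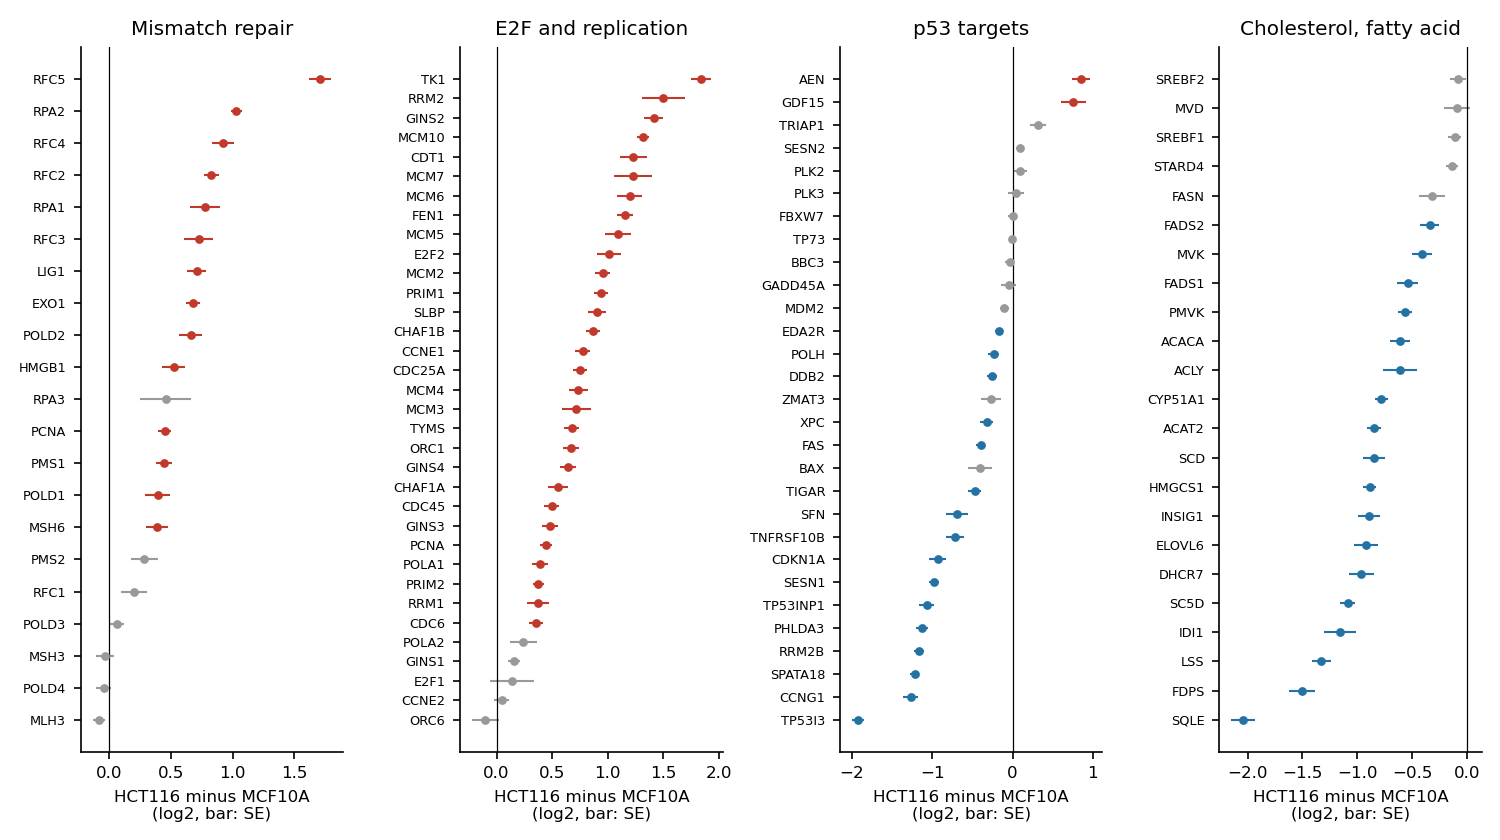
Log2 difference, HCT116 minus MCF10A, with its standard error for each gene of the mismatch repair, E2F and replication, p53 target and cholesterol lists, red where it passed as higher, blue where it passed as lower and grey where it did not pass. In the mismatch repair and E2F lists no gene passed as lower, and in the cholesterol list none passed as higher.

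Other repair genes moved in both directions. Of 28 recombination and Fanconi genes, 13 rose and 3 fell, with a median of 0.08. FANCG, of the Fanconi core complex, had 9.62, 9.42 and 9.74 in HCT116, against 8.54, 8.56 and 8.38 in MCF10A (difference 1.10). Of 30 excision and direct repair genes, 11 rose and 4 fell, 2 and 1 of them by at least 2-fold, with a median of 0.16. NEIL2, a glycosylase of oxidised bases, rose by 1.29, and MUTYH, which removes adenine opposite an oxidised guanine, by 1.15 on its brightest probe, with other probes at 0.28 and 0.10. ERCC5, a nuclease of nucleotide excision repair, fell by 1.08.

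Most genes of DNA replication and mitosis rose. Of 34 E2F and replication genes, 29 rose and none fell, 10 of them by at least 2-fold, with a median of 0.73. TK1, thymidine kinase of the S phase, had 10.26, 10.10 and 10.02 in HCT116, against 8.16, 8.24 and 8.44 in MCF10A (difference 1.84, SE 0.09, adjusted p = 2.6e-06). RRM2, the small subunit of ribonucleotide reductase, had 10.31, 9.95 and 10.64 in HCT116, against 8.80, 9.09 and 8.5 in MCF10A (difference 1.503). GINS2, of the replicative helicase, rose by 1.42, and MCM7, another helicase subunit, by 1.23 on its brightest probe, with others at 1.12 and -0.07. Of 34 genes of G2 and mitosis, 23 rose and 2 fell, 5 and 1 of them by at least 2-fold, with a median of 0.51. BUB1, a spindle checkpoint kinase, rose by 1.39 and CDC20, an activator of the anaphase complex, by 1.34, while CDC25B, a phosphatase that starts mitosis, fell by 1.24. The rate of division was not measured.

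Cyclins and their inhibitors went both ways. Of 14 members 6 rose and 5 fell, 2 and 3 of them by at least 2-fold, with a median of -0.03. CCND1, cyclin D1, had 12.91, 12.81 and 13.18 in HCT116, against 11.90, 11.92 and 11.71 in MCF10A (difference 1.12). CCND2, cyclin D2, had 6.83, 6.69 and 6.68 in HCT116, against 9.48, 9.43 and 9.10 in MCF10A, at least 5.29-fold lower, and a second probe fell by 0.88. CCND3, cyclin D3, fell by 1.16. The D cyclins were thus split, with CCND1 higher and CCND2 and CCND3 lower in HCT116.

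Targets of p53 were mostly lower in HCT116. Of 29 members 16 fell and 2 rose, 6 fell by at least 2-fold, and the median was -0.27. TP53I3, a quinone oxidoreductase, had 7.24, 7.16 and 7.15 in HCT116, against 9.047, 8.998 and 9.281 in MCF10A (difference -1.93), with a second probe near background in HCT116 that did not pass. CCNG1, cyclin G1, fell by 1.27, RRM2B, a ribonucleotide reductase subunit, by 1.17, PHLDA3, an inhibitor of AKT, by 1.13 and TP53INP1, which promotes p53 activity, by 1.07. CDKN1A, the inhibitor p21, had 10.53, 10.21 and 10.48 in HCT116, against 11.46, 11.40 and 11.17 in MCF10A (difference -0.93, adjusted p = 0.00027).

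At chromosome band 9p21, MTAP stood out. MTAP, which salvages methionine from methylthioadenosine, had 10.55, 10.45 and 10.71 in HCT116, against 7.04, 6.88 and 6.91 in MCF10A, where the mean of 6.95 was barely above the near-background level (difference 3.62, SE 0.08, adjusted p = 4.6e-08). KLE shCTRL averaged 7.95. Its neighbour CDKN2A, which encodes the inhibitor p16, had 7.89, 8.09 and 7.72 in HCT116, against 6.91, 6.97 and 6.76 in MCF10A, at least 1.95-fold higher on its brightest probe, with another at 0.95 and a further one near background in both lines. CDKN2B, the inhibitor p15, had 7.16, 7.22 and 7.24 in HCT116, against 6.93, 6.78 and 6.88 in MCF10A (difference 0.34), with other probes at 0.18 and 0.09. Of 11 genes of the band 5 rose and 1 fell. KLHL9, a ubiquitin ligase adaptor, rose by 0.70 and FOCAD, named for focal adhesions, by 0.52, with levels above background in both lines. ELAVL2, an RNA-binding protein of neurons, was lower by 0.35, and MLLT3, HACD4, IFNB1, IFNE and DMRTA1 did not pass, with differences of -0.14, -0.14, 0.04, -0.01 and -0.10. No DNA copy number was measured here.

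The 250 bases before the start of MTAP (RefSeq, GRCh38.p14, chr9:21802386-21802635, plus strand) are shown because MTAP is the gene of the band with the largest difference, and capitals mark TATAAA on either strand.
MTAP: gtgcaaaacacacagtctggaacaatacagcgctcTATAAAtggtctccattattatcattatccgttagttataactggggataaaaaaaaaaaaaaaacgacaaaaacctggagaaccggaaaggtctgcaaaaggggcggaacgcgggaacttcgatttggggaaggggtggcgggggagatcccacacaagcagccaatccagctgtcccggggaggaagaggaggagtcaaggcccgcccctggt
The single match begins 215 bases before the start, and the window holds no TGANTCA and 11 CG pairs.

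DNA methylation genes included 4 rises and 3 falls among 16, 1 rise by at least 2-fold, with a median of -0.03. DNMT3B, a de novo methyltransferase, had 8.16, 8.22 and 8.40 in HCT116, against 7.003, 7.134 and 6.994 in MCF10A on its brightest probe (difference 1.22), and its other probes gave 0.94, 0.47, 0.12 and -0.07. DNMT1, the maintenance methyltransferase, had 11.87, 11.79 and 12.35 in HCT116, against 11.15, 11.20 and 10.68 in MCF10A (difference 0.995). UHRF1, which brings DNMT1 to replicated DNA, rose by 0.98, with another probe at 0.26. MBD2, a reader of methylated DNA, fell by 0.49 on its brightest probe, with others at 0.05, -0.06 and -0.11. TDG, a glycosylase of demethylation, rose by 0.36, a call that 4 of the 6 fits without 1 array lost. ZBTB33 and UHRF2, which bind modified DNA, had differences of -0.66 and -0.71 and passed. HELLS, MBD1, MBD4, TET2, DNMT3L, GADD45A and GADD45B did not pass, with differences between -0.34 (MBD4) and 0.06 (HELLS). DNMT3A and TET1 were near background or barely above it in both lines and did not pass.

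Cancer-testis genes, normally silent outside the germline and often kept so by DNA methylation, held 7 rises and no fall among 35, 5 of them by at least 2-fold, with a median of 0.02. The share that rose was near the 17.7% over all genes, of which 14.7% fell and 2.38% rose by at least 2-fold. MAGEB2, an X-linked member of the MAGE family, had 11.11, 10.87 and 11.21 in HCT116, against 6.80, 6.86 and 6.87 in MCF10A, at least 17.5-fold higher, and KLE shCTRL was near background at 6.86. MAGEA6 had 8.77, 8.82 and 8.78 in HCT116, against 7.03, 7.03 and 6.89 in MCF10A (difference 1.81). MAGEA3 was at least 3.32-fold and MAGEA2 at least 1.79-fold higher on their brightest probes, their other probes lay between -0.02 and 0.13, and since MAGEA genes are near-identical copies these are uncertain. PRAME, an antigen of melanoma, had 8.033, 7.999 and 8.067 in HCT116, against 6.85, 6.87 and 6.84 in MCF10A, at least 2.14-fold higher, with other probes at 0.53 and -0.06. Of the 35 genes, 22 were near background in both lines.

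The window before the start of MAGEB2 (RefSeq, GRCh38.p14, chrX:30215313-30215562, plus strand) is shown as the cancer-testis gene with the largest rise, with the AP-1-type motif TGANTCA, found on either strand, in capitals.
MAGEB2: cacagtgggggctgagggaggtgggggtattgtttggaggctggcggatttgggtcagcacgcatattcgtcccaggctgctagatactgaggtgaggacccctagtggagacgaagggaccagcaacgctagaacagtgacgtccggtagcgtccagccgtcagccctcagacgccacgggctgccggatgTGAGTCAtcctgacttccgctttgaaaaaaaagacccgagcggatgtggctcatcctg
The match begins 58 bases before the start, there is no TATAAA, and 15 CG pairs lie in the window.

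HOX genes set position along the body axis. Of 29 members 5 rose and 5 fell, shares near those over all genes, 3 and 1 of them by at least 2-fold. HOXB8 had 11.15, 11.01 and 11.24 in HCT116, against 6.80, 6.87 and 6.70 in MCF10A, at least 18.3-fold higher. HOXB7 was at least 5.5-fold higher and HOXB5 at least 5.24-fold higher, with levels of 9.27, 9.34 and 9.36 in HCT116 and 6.92, 6.85 and 6.85 in MCF10A. In the HOXC cluster, HOXC8 had 6.77, 6.93 and 6.97 in HCT116, against 8.19, 8.10 and 8.27 in MCF10A, at least 2.39-fold lower.

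All NF-kappaB cytokines and targets that passed were lower in HCT116. Of 28 members 18 fell and none rose, 9 fell by at least 2-fold, and the median was -0.35. CXCL8, the neutrophil attractant interleukin 8, had 7.40, 7.42 and 7.43 in HCT116, against 11.54, 11.66 and 11.58 in MCF10A (difference -4.18, SE 0.05, adjusted p = 2.8e-09), and 10.86 on average in KLE shCTRL. IL1A, interleukin 1 alpha, had 6.72, 6.74 and 6.75 in HCT116, against 10.90, 10.97 and 10.79 in MCF10A, at least 15.5-fold lower. CXCL1, a related chemokine, fell by 3.92. NFKBIA, the inhibitor of NF-kappaB that is itself its target, had 9.34, 9.41 and 9.12 in HCT116, against 11.50, 11.45 and 11.51 in MCF10A (difference -2.20). CCL20, a chemokine for dendritic cells, was at least 4.74-fold lower and IL1B, interleukin 1 beta, at least 3.36-fold lower.

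S100 proteins are small calcium-binding proteins, and many of their genes lie in the epidermal cluster of chromosome 1. Of 19 members 13 fell and 1 rose, 10 and 1 of them by at least 2-fold, with a median of -1.065. S100A9 had 6.88, 6.83 and 6.81 in HCT116, against 12.62, 12.44 and 12.77 in MCF10A, at least 51.2-fold lower. Its partner S100A8 had 6.97, 6.94 and 6.90 in HCT116, against 12.43, 12.46 and 12.47 in MCF10A (difference -5.52). S100A2, typical of basal cells, had 7.05, 7.12 and 6.87 in HCT116, against 11.14, 11.05 and 11.47 in MCF10A (difference -4.21). S100A7, psoriasin, was at least 12.5-fold lower, and S100A4, known from motile cells, was the member that rose, by 1.33. Cornified envelope genes of the upper epidermis gave 9 falls and 3 rises among 29, 5 falls by at least 2-fold, with a median of -0.08. TGM1, the transglutaminase that crosslinks the envelope, had 6.88, 6.94 and 7.07 in HCT116, against 10.84, 10.73 and 10.34 in MCF10A (difference -3.67).

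CLCA2, a membrane protein of stratified epithelium, was near background in HCT116 and at least 25.5-fold lower there. Windows before the starts of 4 genes that fell are shown because TGANTCA, the motif type bound by AP-1 factors, is present in each, with TGANTCA and TATAAA on either strand in capitals (RefSeq, GRCh38.p14). CXCL8 lies at chr4:73740319-73740568 on the plus strand, IL1A at chr2:112784494-112784743 on the minus strand, S100A2 at chr1:153565845-153566094 on the minus strand and CLCA2 at chr1:86423921-86424170 on the plus strand, each written 5′ to 3′ along its gene.
CXCL8: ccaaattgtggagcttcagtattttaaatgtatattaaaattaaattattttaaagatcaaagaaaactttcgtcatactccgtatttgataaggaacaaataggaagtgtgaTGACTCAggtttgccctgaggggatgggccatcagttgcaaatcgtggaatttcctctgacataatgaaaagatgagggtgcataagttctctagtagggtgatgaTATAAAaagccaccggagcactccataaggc
IL1A: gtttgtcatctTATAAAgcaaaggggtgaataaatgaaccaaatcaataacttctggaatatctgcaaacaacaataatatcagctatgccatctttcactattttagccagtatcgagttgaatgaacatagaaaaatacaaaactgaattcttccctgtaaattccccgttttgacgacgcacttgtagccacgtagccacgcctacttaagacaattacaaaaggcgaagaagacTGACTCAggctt
S100A2: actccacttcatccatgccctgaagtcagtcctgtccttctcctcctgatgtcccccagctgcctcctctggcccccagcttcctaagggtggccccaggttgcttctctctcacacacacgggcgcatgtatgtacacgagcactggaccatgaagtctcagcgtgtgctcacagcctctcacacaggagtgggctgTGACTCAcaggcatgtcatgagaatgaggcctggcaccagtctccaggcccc
CLCA2: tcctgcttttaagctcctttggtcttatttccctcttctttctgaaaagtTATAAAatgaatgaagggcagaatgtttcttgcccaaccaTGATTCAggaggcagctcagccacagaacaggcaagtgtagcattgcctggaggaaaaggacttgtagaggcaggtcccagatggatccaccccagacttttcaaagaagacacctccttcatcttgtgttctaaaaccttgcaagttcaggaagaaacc
The TGANTCA match began 137 bases before the start in CXCL8, 12 in IL1A, 52 in S100A2 and 160 in CLCA2, and no matches of the motifs overlapped. These windows were chosen after the expression values were seen. Over 27305 RefSeq promoters of this length TGANTCA was found in 6.6%, and TATAAA in 11.1%. Among genes on the array that matched a promoter (15034), TGANTCA was in 5.12% and TATAAA in 9.12%. Of 384 promoters of genes higher in HCT116 by at least 2-fold, TGANTCA was in 3.65% and TATAAA in 8.07%, and of 559 promoters of genes lower by at least 2-fold, in 5.55% and 9.12%. A match describes letters in a window and no binding was measured.

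MIR205, the gene of a microRNA of stratified epithelium, was also lower in HCT116. Its probe is taken to read a longer transcript and not the mature microRNA, and the probe's sequence was not checked. The probe gave 6.78, 6.80 and 6.79 in HCT116, against 9.70, 9.96 and 8.86 in MCF10A, at least 5.96-fold lower (difference -2.72, SE 0.24, adjusted p = 8.0e-05). The mature 5′ arm hsa-miR-205-5p (RefSeq, GRCh38.p14, chr1:209432166-209432187, plus strand) is shown with its seed, bases 2 to 8, in capitals.
hsa-miR-205-5p: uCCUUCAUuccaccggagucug

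Enzymes of the AKR1C family and NRF2 targets included several of the largest falls, and rises as well. Of 27 members 14 fell and 6 rose, 8 and 3 of them by at least 2-fold, with a median of -0.36. AKR1C2, a reductase of steroids and of reactive carbonyls, had 6.82, 6.90 and 6.93 in HCT116, against 13.10, 13.07 and 13.11 in MCF10A on its brightest probe, at least 71.5-fold lower. AKR1C3 had 6.79, 6.74 and 6.87 in HCT116, against 12.47, 12.47 and 12.53 in MCF10A, at least 47-fold lower, and the brightest AKR1C4 probe was at least 49.9-fold lower. These genes are near-identical in sequence, 5 other AKR1C2 probes were dim in both lines and did not pass, and another AKR1C4 probe did not pass either, so which member is read is uncertain. ALDH3A1, an aldehyde dehydrogenase of cornea and stomach, fell by 3.67, and ABCC3, an export pump, by 2.66. Other targets rose. ALDH1A3, a retinoic acid synthesis enzyme, had 12.07, 11.77 and 12.44 in HCT116, against 10.02, 10.33 and 9.79 in MCF10A (difference 2.05). TXNRD1, thioredoxin reductase, rose by 1.54 and GCLM, of glutathione synthesis, by 1.19 on its brightest probe, with another at 0.42.

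Genes of cholesterol and fatty acid synthesis held falls and no rise. Of 23 members 18 fell and none rose, 5 by at least 2-fold, with a median of -0.78. SQLE, squalene epoxidase, had 9.66, 9.59 and 9.86 in HCT116, against 11.73, 11.94 and 11.56 in MCF10A (difference -2.04, SE 0.11, adjusted p = 4.1e-06). FDPS, farnesyl diphosphate synthase, had 9.14, 9.26 and 9.06 in HCT116, against 10.41, 10.68 and 10.89 in MCF10A (difference -1.503). LSS, lanosterol synthase, fell by 1.33 on its brightest probe, with others at -0.09 and -0.05, and IDI1, isopentenyl diphosphate isomerase, by 1.16.

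EGF receptor and MAPK genes moved in both directions. Of 24 members 6 rose and 8 fell, 4 and 6 of them by at least 2-fold, with a median of 0.04. EGFR, the EGF receptor, had 7.40, 7.49 and 7.55 in HCT116, against 9.62, 9.51 and 9.65 in MCF10A (difference -2.11), with 3 dimmer probes at -0.92, -0.35 and -0.04. EREG, a ligand of the receptor, had 9.153, 9.001 and 9.202 in HCT116, against 7.36, 7.36 and 7.30 in MCF10A (difference 1.78). HBEGF, another ligand, fell by 1.25. Of the feedback inhibitors, DUSP5 rose by 1.55 and ERRFI1 by 1.16, while SPRY2 fell by 2.08 and DUSP6 by 1.04. PHLDA1 rose by 1.43 on its brightest probe and fell by 0.77 on another, so its direction is uncertain, though the counts above take it as a rise.

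WNT targets tended to be higher, with 9 rises and 3 falls among 21, 3 and 1 of them by at least 2-fold, and a median of 0.10. AXIN2, a feedback inhibitor of the pathway, had 8.29, 8.37 and 8.37 in HCT116, against 7.06, 6.89 and 6.96 in MCF10A (difference 1.37, SE 0.06, adjusted p = 1.2e-06). DKK1, a secreted inhibitor, had 12.60, 12.34 and 12.75 in HCT116, against 11.16, 11.13 and 11.08 in MCF10A (difference 1.44). In the IGF axis 2 of 14 rose and 5 fell. IGFBP2, a binding protein of the growth factors, rose by 1.73, and IGFBP7 was at least 3.73-fold lower.

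Plasminogen and protease genes gave 11 falls and 2 rises among 22, 7 falls by at least 2-fold, with a median of -0.23. CTSB, the lysosomal protease cathepsin B, had 8.64, 8.74 and 8.64 in HCT116, against 10.89, 11.06 and 10.63 in MCF10A (difference -2.19). PLAU, urokinase, had 9.54, 9.19 and 9.46 in HCT116, against 10.87, 10.89 and 10.53 in MCF10A (difference -1.37).

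Genes of antigen presentation and of the interferon response were mixed. Of 21 genes of HLA class I antigen presentation, not all of them HLA genes, 5 rose and 7 fell, with a median of -0.06. By at least 2-fold, 2 rose, HLA-B and HLA-F, and 1 fell, PSMB8, which is not an HLA gene. HLA-B had 8.71, 8.73 and 8.80 in HCT116, against 7.52, 7.53 and 7.59 in MCF10A (difference 1.20), and HLA class I genes are near-identical in sequence, so the member read is uncertain. PSMB8, an immunoproteasome subunit, had 6.74, 6.78 and 6.74 in HCT116, against 8.34, 8.31 and 8.35 in MCF10A, at least 2.64-fold lower, with other probes at -1.59 and -0.999 and a dim one that did not pass. Of 9 HLA class II genes 1 rose and none fell. Among 42 interferon-stimulated genes 4 rose and 14 fell, 2 and 3 of them by at least 2-fold, with a median of -0.04. ISG15, a ubiquitin-like protein, had 9.99, 10.52 and 9.49 in HCT116, against 7.18, 7.18 and 7.12 in MCF10A (difference 2.84), a wide spread in HCT116 but no overlap. HERC5, the ligase that attaches it, was at least 2.89-fold higher, whereas GBP2, a guanylate-binding protein, was at least 3.57-fold lower.

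Stress and metabolic lists went both ways. Of 25 genes of the unfolded protein and ATF4 responses 10 rose and 7 fell, 1 and 5 of them by at least 2-fold. DDIT4, an inhibitor of mTOR, had 9.11, 8.70 and 8.66 in HCT116, against 12.32, 12.31 and 12.24 in MCF10A (difference -3.46), and CEBPB, a transcription factor, fell by 2.29. SDF2L1, of the endoplasmic reticulum, rose by 1.79. Of 29 glycolysis and hypoxia genes 6 rose and 12 fell, 1 and 2 of them by at least 2-fold. HK1, hexokinase 1, fell by 2.04 on its brightest probe, with others at -0.49, -0.01 and -0.01, NDRG1 by 1.64, and ADM, adrenomedullin, rose by 1.32. Of 31 oxidative phosphorylation genes 1 rose and 7 fell, and of 35 ribosomal protein genes 4 rose and 5 fell, with no gene past 2-fold in either list. Among 16 oncofetal and chromatin genes 3 rose and 1 fell, and HMGA1, an architectural chromatin protein, had 11.78, 11.65 and 11.66 in HCT116, against 10.09, 9.72 and 10.07 in MCF10A on its brightest probe (difference 1.73), with its other probes at 0.20 and 0.03.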

How the data were processed

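Total RNA had been hybridised to Illumina HT-12 BeadChips with 1 array per sample. The deposited values are linear probe intensities exported from GenomeStudio per the submitters' notes, which give no version in the sources used here, with no sign of background subtraction or normalization. Extraction used a spin-column kit, per the labels. Here values were transformed as log2(intensity + 16) and quantile-normalized over all 21 arrays. Of 47323 probes, 30113 carried 1 gene, 8 several and 17202 none. Groups came from the labels, and the table's gene annotation follows the platform.

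HCT116 and MCF10A arrays, 3 against 3, were fitted with limma 3.58.1 (lmFit and eBayes) in R 4.3.3, with Benjamini-Hochberg adjustment over all probes with 1 gene. A gene was read by its brightest probe, and other probes of a gene are given beside called differences where 1 had the other sign or under 0.5 of the size. The call was adjusted p below 0.05, with a log2 difference of at least 1 for the 2-fold counts. No array was dropped and nothing was imputed. The fit was tested on simulated data. Arrays limit precision by their number.

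The members, the 40 gene lists and the tests were chosen with earlier results of these data known. Genes named are the 15 largest rises and falls, all measured members of the mismatch repair, 9p21 and DNA methylation lists, and up to 8 members per list and direction called at least 2-fold, with tissue markers. LAMB3, DSG3, JAG2, ESR1, PGR, PTPRC, CDKN1A, MIR205 and the promoter windows were picked after their values were seen. The alternatives tried were other offsets, background correction, normalizations, filters, groups in the fit, means over probes, a replicate block and leaving out each array. Replicate numbers are not stated to pair the arrays, so the main fit has no block. Residuals of same-numbered arrays of the lines correlated at 0.04, -0.36 and -0.50, and those of other numbers at up to 0.447. Whether arrays of the lines share a source of variation was not tested. Sequences are from RefSeq. Some genes and detection p-values were not analysed here.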

Additional observations from a re-analysis of the deposited data

How the results depend on the processing

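Of the 230 genes named by rule, 218 kept their call under every alternative that gave them a value and none turned direction. For 10 of the 230 the filter on dim probes left no value. Most of the 230 were named for a call in these same data, so kept calls are partly built in. Of all 1184 genes called at least 2-fold, 1011 were also called with an offset of 50 and 912 with the mean of all probes. Normexp background correction gave 705 genes at least 2-fold higher and 929 lower. The count of genes at least 2-fold higher was 722 with values as deposited and no normalization, against 477, with 716 at least 2-fold lower, against 707, and the genes lower at any size were 1916, against 2953. Leaving out each array in turn gave 474 to 507 genes at least 2-fold higher, 694 to 729 lower, 3019 to 3569 higher at any size and 2505 to 2981 lower at any size. With the replicate number as a block, 477 and 707 genes passed at least 2-fold, and 2957 and 2549 at any size; the numbers share no source known from the labels. Calls changed among small differences: POLD1 lost its call without HCT116 replicate 1 or 3 or MCF10A replicate 1, TDG without HCT116 replicate 1 or 3 or MCF10A replicate 1 or 3, and MBD4 passed as lower without HCT116 replicate 2 (-0.52). HMGB1 lost its call with KLE shCTRL in the fit (adjusted p = 0.12). With the mean of its probes MSH3 passed as lower (-0.65, adjusted p = 0.0002). The cause of these changes was not tested. Genes near background, 7265 in both lines, have no measurable order.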

Other observations

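Among the 17202 probes that carry no gene here, 95 (0.55%) were higher in HCT116 and 135 (0.78%) lower by at least 2-fold, smaller shares than among annotated genes. Across the probes the first principal component, which separated the lines, held 90.6% of the variance of the 6 arrays and the second 5.33%.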
